A study of Mus musculus with 2 samples.

Results

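Mir214, Mir199a-1, Mir199a-2 and Mir199b are 4 mouse miRNA genes, chosen by name, among the 1973 miRNA genes counted in the embryonic face. Mir199a-2 and Mir214 lie in the non-coding transcript Dnm3os, Mir199b lies at the Dnm1 locus and Mir199a-1 at the Dnm2 locus. All 4 had at least 10 counts in both libraries, as did 360 of the 1973 genes (18.2%). Short RNA (under 30 bases) was sequenced from the facial prominences, the tissue that forms the jaws, palate and nose, of healthy B6NCrl embryos at 13.5 days. Embryos of both sexes were pooled, and the labels name no mutant allele, treatment or transgene. The 2 libraries are biological replicates 1 and 2 of this single group, so the data hold levels and their spread and no contrast. Replicate 1 held 4562135 counts on the strand of the miRNA genes and replicate 2 held 5771249. Nothing in the labels says that the replicates came from separate litters, so p-values measure the difference between these samples only.

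A miRNA gene is transcribed into a hairpin, and either arm of the hairpin (5p or 3p) can be cut out as a mature miRNA of about the length of the reads. The mature strand finds its targets mainly through its seed, bases 2 to 8. Dnm3os is a transcript of embryonic mesenchyme that runs opposite to Dnm3, is activated by the mesenchymal factor Twist1, and serves as the precursor of miR-199a and miR-214. Mice without Dnm3os have skull and skeletal defects. Known targets of miR-214 include the chromatin enzyme Ezh2, and those of miR-199a-3p include the growth kinase Mtor.

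The hairpins are shown first because the meaning of the counts turns on which letters the genes share. They are from RefSeq (GRCm38.p6), read 5′ to 3′, with the mature arms in capitals. All 4 genes matched an entry.
Mir214 (chr1:162223368-162223477, plus strand): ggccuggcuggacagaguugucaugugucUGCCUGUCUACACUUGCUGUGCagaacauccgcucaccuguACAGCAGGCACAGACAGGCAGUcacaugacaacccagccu
Mir199a-2 (chr1:162217814-162217923, plus strand): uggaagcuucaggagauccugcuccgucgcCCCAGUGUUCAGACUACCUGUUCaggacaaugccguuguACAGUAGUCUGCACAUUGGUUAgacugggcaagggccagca
Mir199b (chr2:32318460-32318569, plus strand): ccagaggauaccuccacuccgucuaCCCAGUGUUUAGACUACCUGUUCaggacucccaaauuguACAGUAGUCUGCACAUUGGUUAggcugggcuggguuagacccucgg
Mir199a-1 (chr9:21496495-21496564, minus strand): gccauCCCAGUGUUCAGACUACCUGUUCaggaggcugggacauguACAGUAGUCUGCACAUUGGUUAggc
In Mir199b the first capital run is the stretch most like miR-199a-5p. The mature entry mmu-miR-199b-5p is named only. Between the arms lie 19 bases in Mir214, 17 in Mir199a-1 and 16 in each of Mir199a-2 and Mir199b.

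The mature sequences fall into 4 seed groups, shown here with the seed in capitals.
mmu-miR-199a-5p: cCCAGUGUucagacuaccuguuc
mmu-miR-199a-3p and mmu-miR-199b-3p: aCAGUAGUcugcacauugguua
mmu-miR-214-5p: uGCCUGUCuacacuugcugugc
mmu-miR-214-3p: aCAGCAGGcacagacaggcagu
mmu-miR-761: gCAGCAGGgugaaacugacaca
The 3p arm is letter for letter the same in Mir199a-1, Mir199a-2 and Mir199b, and the 5p arm is the same in both Mir199a genes. The 5p stretch of Mir199b differs from miR-199a-5p by the single substitution C10U, counted from the 5′ end of miR-199a-5p, which leaves the seed as it is. The last sequence is shown because Mir761 was the only other listed gene with a seed of this group, that of miR-214-3p. Mir761 had 0 counts in replicate 1 and 1 count in replicate 2, and the files do not say how the counts of Mir214 divide between its arms, which have different seeds.

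How many places a sequence has matters here, because the files set reads with several places apart and give them to no gene. Such reads made up 30.7% of all reads in replicate 1 and 31.0% in replicate 2. Among 1005 RefSeq hairpins and 141767 GENCODE transcripts, miR-199a-3p had 3 places, miR-199a-5p had 2, and both arms of Mir214 had 1. The 5p stretch of Mir199b occurred in 1 hairpin. A read equal to a mature miR-199a arm therefore fits several genes, whereas a read of either Mir214 arm fits 1 gene.

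A longer read can still tell the Mir199 genes apart. On the 5p arm, the first base before the arm already differs between all 3 hairpins. Past the 3′ end of that arm, 5 further bases are needed to separate Mir199a-1 from Mir199a-2. On the 3p arm, 2 further bases at the 3′ end separate Mir199a-2 from both others. There Mir199a-1 and Mir199b stay alike to the end of the annotated Mir199a-1 hairpin, and before the arm they first differ at the 4th base. Which arms and read lengths made up the counts of each gene was not tested, since the files count whole hairpins.

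All 4 hairpins lie inside an intron of a dynamin gene and on its opposite strand. Dynamins are GTPases that pinch vesicles from membranes. Dnm3 runs on the minus strand of chromosome 1 and Dnm1 on the minus strand of chromosome 2, with their miRNA genes on the plus strand. Dnm2 runs on the plus strand of chromosome 9, with Mir199a-1 on the minus strand (GENCODE release M21, GRCm38). In the protein-coding transcripts of all 3 dynamin genes that span it, the intron follows a host exon of 114 bp and precedes one of 110 bp, except in 1 of the 8 from Dnm2, whose next exon is 56 bp. Among transcripts of other types, 1 from Dnm1 has 78 bp and 1 from Dnm2 has 675 bp in the exon before it. Mir199b sat in intron 15 in 7 of 8 protein-coding Dnm1 transcripts that span it and in intron 14 in the other. Mir199a-1 sat in intron 15 in 5 of 8 Dnm2 transcripts, in intron 14 in 2 and in intron 9 in the shorter one. Both chromosome 1 genes sat in intron 14 in 2 of 4 Dnm3 transcripts, and in intron 3 in the 2 shorter ones.

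The introns differ far more in size than the exons beside them. The Dnm3 intron spans 97087 bp, the Dnm2 intron 4640 bp and the Dnm1 intron 3496 bp. The 3′ end of the Mir214 hairpin lies 8176 bp from the nearest Dnm3 exon and that of Mir199a-2 13730 bp, with 5444 bp between the hairpins. Mir199a-1 lies 1877 bp and Mir199b 1452 bp from the nearest exon of their hosts. On their own strand, Mir199a-2 and Mir214 both lie in the single exon of the longest Dnm3os transcript (7928 bp), while Mir199b and Mir199a-1 have no annotated host. One further miRNA gene of the files, Gm23363, lies 116 bp before Mir199b on the same strand, with 13 counts in replicate 1 and 4 in replicate 2.

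**Figure D1:**
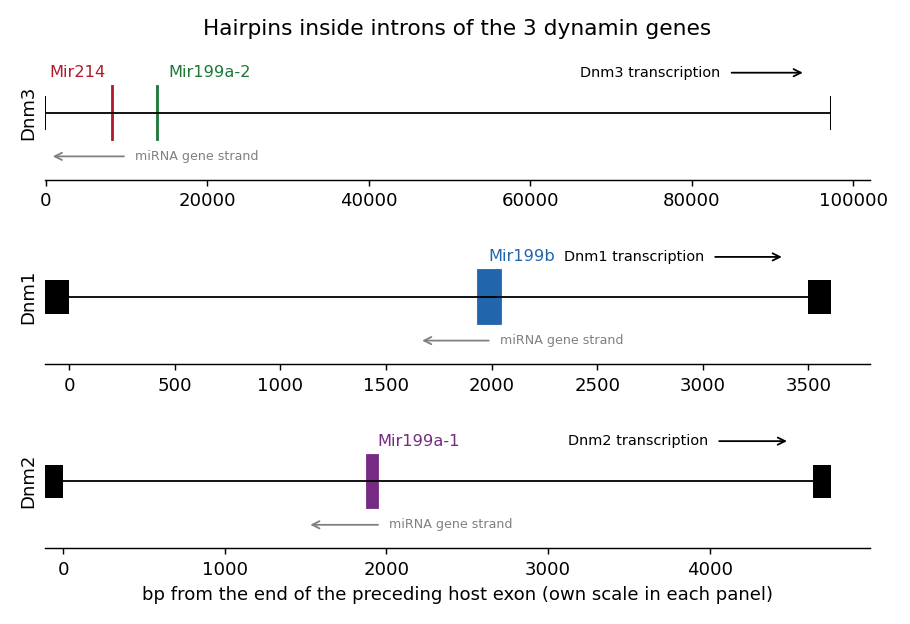
Each panel shows the intron of a dynamin gene (black boxes, flanking exons of 114 and 110 bp; line, intron) with the hairpins inside it as coloured boxes, in bp from the end of the preceding host exon, each panel on its own scale. The hairpins run opposite to their host in all 3 introns, and the Dnm3 intron of 97087 bp holds both Mir214 and Mir199a-2.

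Levels are given as CPM, counts of a hairpin per 1000000 same-strand counts on miRNA genes, with the SD over the 2 libraries. Mir214 had 122379 counts in replicate 1 and 141908 in replicate 2, or 26825 and 24589 CPM. It stood 11th in each library, at 25707 ± 1581 CPM (SD, n = 2). The 95% Wilson interval of its share, which covers counting error only, was 2.67 to 2.70% in replicate 1 and 2.45 to 2.47% in replicate 2. The intervals of both libraries are thus apart, with the higher level in replicate 1.

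Mir199b, the next, had 8704 counts in replicate 1 and 13142 in replicate 2. These are 1908 CPM (Wilson interval 1868 to 1948) and 2277 CPM (2239 to 2316), with a mean of 2093 ± 261 CPM. It was 74th and 67th in the libraries. Mir199a-2 had 1097 and 1667 counts, or 240 CPM (227 to 255) and 289 CPM (275 to 303), with a mean of 265 ± 34.2 CPM. It therefore stood far below Mir214, its neighbour in Dnm3os. Mir199a-1 was the lowest, with 95 and 160 counts, or 20.8 CPM (17.0 to 25.5) and 27.7 CPM (23.7 to 32.4), and a mean of 24.3 ± 4.88 CPM. The intervals of its libraries overlap.

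**Figure D2:**
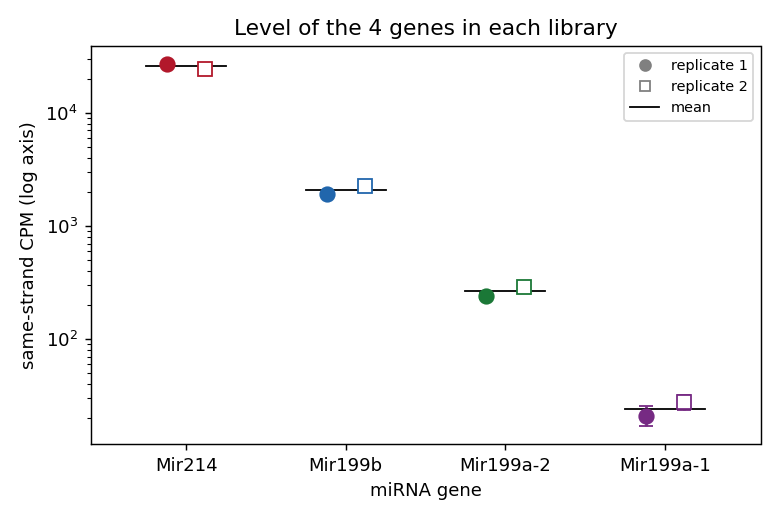
Points are the same-strand CPM of each gene on a log axis, filled for replicate 1 and open for replicate 2, with 95% Wilson intervals (counting error only) and the mean as a line. Levels step down from 25707 CPM for Mir214 to 24.3 CPM for Mir199a-1, and no library of 1 gene overlaps a library of the next.

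The order Mir214, Mir199b, Mir199a-2, Mir199a-1 was the same in both libraries, and each step was far larger than the spread between them. Mir214 exceeded Mir199b 14.1-fold in replicate 1 and 10.8-fold in replicate 2. Mir199b exceeded Mir199a-2 by 7.93-fold and 7.88-fold, the steadiest of the 6 pairs. Mir199a-2 exceeded Mir199a-1 by 11.5-fold and 10.4-fold. The Mir199a-1 hairpin is annotated at 70 bases and the others at 110, and per base of hairpin the last step was 6.99-fold on average. Both Mir199a hairpins hold the same mature arms, so counts need not scale with annotated length, and this value is no corrected ratio. The 4 genes together held 2.90% of counts in replicate 1 and 2.72% in replicate 2, and Mir214 made up 92.5% and 90.5% of that. The 3 Mir199 genes came to 0.217% and 0.259% of all counts.

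Among all genes Mir214 was close in level to Mir26b above it (29506 ± 2092 CPM) and to Mir126a below it (24841 ± 1371 CPM). Mir126a is the miRNA of endothelium, and its libraries overlap those of Mir214, whereas the libraries of Mir26b do not. By distance in log2 CPM over the 2 libraries, the genes most like Mir214 were Mir126a (0.07), Mir99b (0.11) and Mir26b (0.34). Those most like Mir199b were Mir101b (0.12), Mir532 (0.12) and Mir467c (0.16). With only 2 libraries such likeness is hardly more than a like level. Next to Mir199b stood Mir101b (2216 ± 263 CPM) and Mir467e (2086 ± 12.5 CPM). Next to Mir199a-2 stood Mir665 (273 ± 9.49 CPM) and the smooth muscle gene Mir145a (258 ± 18.8 CPM). Next to Mir199a-1 stood Mir666 (25.6 ± 1.91 CPM) and Mir466n (23.5 ± 3.78 CPM). All 6 of these overlapped their neighbour between libraries.

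**Figure D3:**
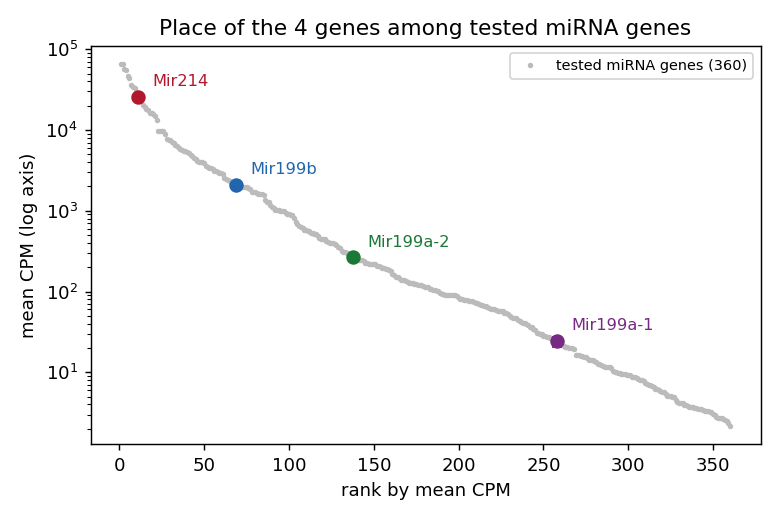
Grey points are the mean CPM of the 360 genes with at least 10 counts in both libraries, on a log axis, against their rank, and coloured points are the 4 genes with the range of both libraries. Mir214 stands at rank 11, Mir199b at 69, Mir199a-2 at 138 and Mir199a-1 at 258.

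The genes were also set beside others of their class, by whether the listed mature sequences each had 1 place or all had several. Both Mir199a genes share their mature sequences with each other, and their levels are 265 and 24.3 CPM. Mir214, with both arms in 1 place, was 11th of the 280 tested genes whose listed mature sequences each had 1 place (median 137 CPM). The 3 Mir199 genes were among the 9 tested genes whose listed sequences all had several places (median 60.9 CPM), where Mir199b was 1st, Mir199a-2 2nd and Mir199a-1 6th. Mir199b counts there by its 3p entry alone, the only one listed, although its 5p stretch occurs in 1 hairpin, so its rank rests on that listing. The order of these medians depends on the minimum: among genes with a count in either library they were 3.74 CPM for the first group and 42.6 CPM for the second. The tables searched are not complete, so a sequence found once may have further places, and the part of uncounted reads in the order of the 4 genes was not tested.

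Mir214 and Mir199a-2 both lie in the longest Dnm3os transcript and in Dnm3os-202 (1 exon of 7926 bp). Dnm3os-203 holds Mir199a-2 in its exon 1 and does not reach Mir214. Mir214 exceeded its neighbour by 112-fold in replicate 1 and 85.1-fold in replicate 2. Mir199a-2 made up 0.888% of the counts of this pair in replicate 1 (Wilson interval 0.838 to 0.942) and 1.16% in replicate 2 (1.11 to 1.22), so the intervals do not overlap. Only 2 other pairs of tested genes within 10 kb on 1 strand joined a gene of unique listed sequences with a gene of none. Mirlet7d exceeded Mirlet7a-1 by 47.5-fold and 39.7-fold, and Mirlet7b exceeded Mirlet7c-2 by 24.6-fold and 31.4-fold, all of them let-7 genes. In all 3 pairs the gene with unique sequences was the higher in both libraries, and the ratio was highest for Mir214. Reads equal to a listed mature sequence of the other gene of each pair go to no gene. The counting itself thus favoured this direction, and its part in the ratios was not tested.

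The libraries were compared gene by gene with a two-sided exact binomial test with TMM scaling and Benjamini-Hochberg adjustment over the 360 genes, which weighs counting error only. All 4 genes passed at an adjusted p of 0.05, in a setting where 198 of 360 genes (55.0%) passed. Mir214, at 26825 and 24589 CPM, was higher in replicate 1, with a log2 ratio of replicate 2 to replicate 1 of -0.13 ± 0.0056 (counting SE; adjusted p = 9.73e-110, exact binomial test). It was 1 of 98 genes higher in that library (27.2%). A larger absolute ratio was found at 257 of the 360 genes.

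The 3 Mir199 genes were higher in replicate 2, as were 100 genes in all (27.8%). Mir199b was higher by a log2 ratio of 0.25 ± 0.020 (adjusted p = 6.79e-37, exact binomial test) and Mir199a-2 by 0.26 ± 0.056 (adjusted p = 7.58e-06, exact binomial test). Their ratios stand close to the median absolute ratio of 0.24 over all tested genes. Mir199a-1 had a ratio of 0.41 ± 0.19 and lies at the threshold (adjusted p = 0.0497, exact binomial test). With a count minimum of 1 in place of 10 its adjusted p was 0.0533, and over all settings that tested it the range was 0.0375 to 0.0533. The difference in ratio between Mir214 and the Mir199 genes was not tested beyond the intervals given above.

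**Figure D4:**
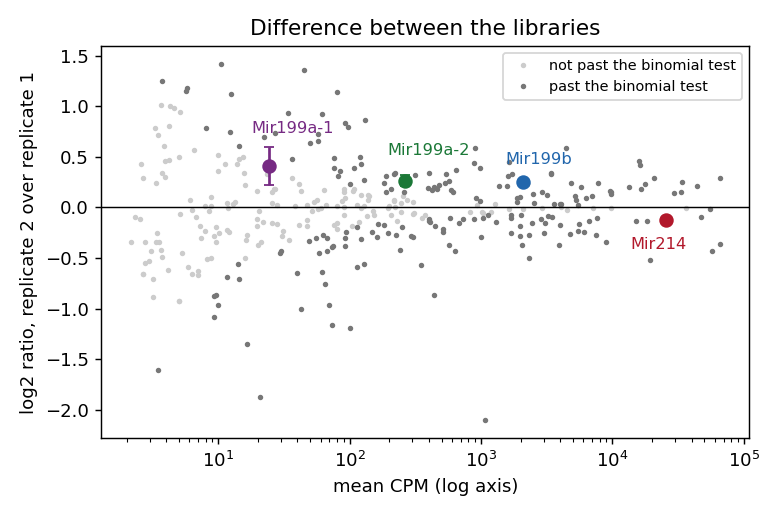
The log2 ratio of replicate 2 to replicate 1 (TMM scaled) is plotted against mean CPM on a log axis for 360 genes, dark where past the exact binomial test; bars on the 4 genes are 1 counting SE. Mir214 lies just below 0 at -0.13, and the Mir199 genes lie above it at 0.25, 0.26 and 0.41.

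Other miRNA genes of mesenchyme, smooth muscle, matrix and cartilage also went both ways between the libraries. Of the 14 genes of this list, 13 were matched and 11 tested, with 3 higher in replicate 1, 5 higher in replicate 2 and 3 not past the test. Over all 360 tested genes, 27.2% were higher in replicate 1 and 27.8% in replicate 2, by a test of counting error only. The median log2 ratio of the list was 0.16, against -0.01 over all tested genes. Mir140, the cartilage miRNA, had 18603 CPM in replicate 1 and 22710 in replicate 2, and Mir143 of smooth muscle and mesenchyme 16319 and 19231 CPM. Mir455, also a cartilage miRNA, went the way of Mir214, at 1849 and 1550 CPM. Mir214 thus stood above Mir140 and Mir143 in both libraries, and within the list Mir23b alone stood higher, at 65348 and 48622 CPM.

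Markers of other cell types were summed in each library for comparison. The 7 epithelial genes summed to 6.35% of counts in replicate 1 and 6.33% in replicate 2, with 5 higher in replicate 2 and 2 higher in replicate 1. Among all 360 tested genes these shares were 27.8% and 27.2%. The endothelial gene Mir126a gave 2.58% and 2.39%. Of the 5 matched muscle genes, which summed to 0.0583% and 0.0325%, 3 were at 0 in both libraries. Nearly all of the muscle sum was Mir206 (570 and 314 CPM), with Mir133b at 13.2 and 11.1 CPM. Of the 8 matched neural genes, which summed to 0.0553% and 0.0565%, 3 were at 0, and the 3 matched blood genes summed to 0.0474% and 0.0514%. Most of the blood sum was Mir223 (383 and 363 CPM), while Mir144 (25.2 and 64.8 CPM) and Mir451a (65.8 and 86.3 CPM) were higher in replicate 2. A sum can thus follow 1 gene and hide others. Reads with several places are missing from these sums too, and Mir9-2, a neural gene at 0, has listed sequences with several places. Mir124a-1, Mir124a-3, Mir133a-1 and Mir133a-2, also at 0, had no listed sequence whose places could be counted. A 0 at these genes therefore sets no upper limit on a level. Mir1a-1, a muscle gene at 0, had listed sequences with 1 place each in the incomplete set searched. Its 0 allows up to 3 uniquely placed counts in each library. The part of these cell types in the differences of the 4 genes was not tested, and in such bulk tissue fewer cells of a type and less RNA per cell cannot be told apart.

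Reads on the host's strand were nearly absent at the 4 hairpins. Mir214 had 2 opposite-strand counts in replicate 1 and 3 in replicate 2, that is 0.0016% and 0.0021% of its same-strand counts. Mir199b, Mir199a-2 and Mir199a-1 had 0 in both libraries, and a count of 0 allows up to 3 uniquely placed counts, or 0.658 CPM in replicate 1 and 0.520 CPM in replicate 2. Over the 344 tested genes with no miRNA gene opposite, such counts were 0.0035% and 0.0031% of the same-strand counts. Only 23 of these 344 genes had any such count, so this share is pooled over genes that mostly had 0. The values at Mir214 are below the pooled share, not below the level of most genes. Since RNA under 30 bases was counted over the hairpins only, transcription of the dynamin genes was not tested.

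A place inside a gene of the other strand, with no host on its own, was shared by 249 of the 1973 miRNA genes, of which 26 were tested (median 105 CPM). Mir199b was 4th of these 26, after Mir127 (5585 ± 435 CPM) and Mir431 (3083 ± 227 CPM), both opposite the imprinted gene Rtl1, and Mir484 (2474 ± 160 CPM) opposite Marf1. Mir199a-1 was 17th. All 26 had 0 opposite-strand counts in both libraries.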

How the data were processed

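Per the deposited description files, the authors made whole-number read counts per miRNA gene on mm10 with GENCODE release M4; aligner and trimming: not given in the sources used here. The files have no header. Their 3 columns were read as counts without strand, on the gene's strand and on the opposite strand, and 4 lines of read classes (unmapped, several places, no gene, ambiguous) stayed out of all totals. Replicates 1 and 2 held 4562135 and 5771249 same-strand counts, and intervals and floors cover counting error only, since PCR copies cannot be told from separate molecules without identifiers. CPM were not divided by hairpin length unless stated.

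Gene names and positions came from GENCODE release M21 (same build; 1894 of 1973 identifiers matched), sequences from RefSeq. TMM factors (edgeR 4.0.16, R 4.3.3) were computed on the tested genes, binomial tests with scipy 1.17.1, and the test was tested on simulated data. Mature sequences were to be matched to the genome; no genome was used here, and they were matched to transcripts and hairpins. The members and lists were chosen with earlier results of these data known. Named genes were the 4 members, genes sharing a seed, nearby genes, neighbours in rank, the 3 genes nearest in level to Mir214 and Mir199b, and genes of the lists; the let-7 pairs and the antisense genes ranked above Mir199b were named after their values were seen. Other settings tried were size factors from DESeq2 1.42.0, scaling by totals, the column without strand, count minimums of 1 and 100, other totals, hairpins only, each library left out and, added after seeing the data, TMM over all genes.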

Additional observations from a re-analysis of the deposited data

Results flagged for a closer look

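Reads with several places in the genome lie outside the gene counts and came to 3179149 in replicate 1 and 4058237 in replicate 2, reads that no result above uses. Their total concerns the whole library and says nothing of the Mir199 genes by itself. They are the class to which reads equal to a mature miR-199a arm belong by sequence, but the files do not divide them by gene, so none was assigned to the Mir199 genes.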

How the results depend on the processing

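Of 70 recomputed values, 62 kept their direction, their side of the threshold or their size within the spread, and 0 changed direction. Per 1000000 of all reads, read classes included, Mir214 came to 11333, Mir199b to 923, Mir199a-2 to 117 and Mir199a-1 to 10.7, with their order kept, because the total is larger. Without the most abundant gene in the total, Mir214 stood at 27523 CPM. Among genes with a count in either library, the median was 3.74 CPM for genes with unique listed sequences and 42.6 CPM for genes with none, since more low genes enter. The count minimum of 1 ended the call of Mir199a-1 (log2 ratio 0.44, adjusted p = 0.0533, exact binomial test), and the minimum of 100 left it untested. Genes past the test numbered 178 to 209 over all settings. Left out in turn, the libraries gave 24589 to 26825 CPM for Mir214, 1908 to 2277 for Mir199b, 240 to 289 for Mir199a-2 and 20.8 to 27.7 for Mir199a-1. With 2 libraries, each such value is that of the other library, which always lies within the SD of the mean. The same holds for ratios between genes with a library left out. These values are among the 62 but could not have fallen outside the spread. No paired analysis was possible because the study has a single group. Depth limits only Mir199a-1, at 95 and 160 counts.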
